A study of Mus musculus with 6 samples.

Results

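Epiblast stem cells (EpiSCs) treated with SB431542 were set against mouse embryonic stem (mES) cells treated with the same compound. The comparison used 3 of the series' 6 arrays, chosen by their sample titles: mES cells derived from E3.5 embryos, an EpiSC line derived from E3.5 embryos and an EpiSC line derived from E5.5 embryos. All 3 received 20 µM SB431542 each day for 4 days. The remaining 3 arrays hold the same 3 kinds of cell without the compound. All 6 samples come from mouse strain 129 and shared 1 medium, Knockout DMEM with knockout serum replacement, so neither the mES cells nor the EpiSCs differed in the medium that the labels record. The labels name no added LIF, FGF2, Activin or feeder layer.

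SB431542 inhibits the receptor kinases ALK4, ALK5 and ALK7, and so stops the signals of Activin, Nodal and TGF-beta that pass through Smad2 and Smad3. EpiSCs are primed pluripotent cells that need this signal to stay undifferentiated, and the loss of it is known to open the way to neural fates. Mouse ES cells are naive pluripotent cells that do not depend on it. The pair of treated cultures therefore sets a cell that loses a signal it needs beside one that does without it, with the compound itself held the same on both sides.

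Each sample's RNA was read on 1 Agilent array in a single colour. A level is the log2 signal of a gene's probe minus the 75th percentile of its own array, so 0 means as bright as that percentile and levels of different genes are not compared. The share of spots above background ran from 82.6% to 85.7% over the arrays, and 0 spots were saturated. A total of 16154 named genes were tested. Treated and untreated mES cells correlated at r = 0.993 over 14477 genes above background on all 6 arrays, the treated E3.5 and E5.5 EpiSC lines at 0.968, and treated mES cells with those lines at 0.853 and 0.887. Those correlations run across genes, which are not independent replicates.

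Each group holds 1 array. The EpiSC lines were taken as replicates of their class in a limma fit of 4 arms over the 6 arrays, which leaves 2 residual degrees of freedom, and each lone mES array was given the same variance as the lines. No label says whether the arrays stand for separate cultures. The spread behind the p-values is that between the 2 EpiSC lines, with and without the compound, and some of it may be technical. No spread among mES samples entered it. The treated mES and treated E5.5 EpiSC arrays lay on the same slide and the treated E3.5 EpiSC array on another. The value within that slide is the one given for the E5.5 line.

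The labels were checked against markers. The summed signal of 8 mES markers, in units of the array's 75th percentile, was 191 on the treated mES array and 8.41 and 8.84 on the treated E3.5 and E5.5 EpiSC arrays. For 6 EpiSC markers (Pou5f1, Sox2, Fgf5, Otx2, T and Pou3f1) the sum was 9.89 and 12.5 in the treated lines, below the 88.6 and 105.9 of the same lines without the compound and below the 56.9 of treated mES cells. The 7 neural progenitor markers summed to 182 and 141 in the treated lines against 12.2 in treated mES cells. Of these, Nes, Hes5, Zic1 and Fabp7 passed as higher in the limma fit, and Pax6, Sox1 and Sox2 did not pass. Of the 6 EpiSC markers Pou5f1 alone passed as lower. Sox2 is counted in each of these sums, and the brightest probes weigh most in a sum. In treated mES cells Sox2 (3.29) was the brightest neural progenitor marker and Pou5f1 (5.35) the brightest EpiSC marker. Fgf5 (-5.48) and T (-4.10) were low there too. In the treated lines Hes5, Zic1 and Fabp7 were the brightest neural progenitor markers. The data therefore go against the EpiSC label as a description of the treated cells' state, and "treated EpiSCs" here means cells that were EpiSCs when treatment began. The label of the mES array fits its markers.

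In treated EpiSCs, genes of pluripotency, of the germline and of epithelial junctions were lower than in treated mES cells. Genes of neural progenitors, neurons and axon guidance and some of the hindbrain were higher. Of 16154 genes, 1712 passed at a limma adjusted p under 0.05 with the brighter side above background, which is 10.6%. The share called higher was 5.35% (864 genes) and the share called lower 5.25% (848). Counts of called genes in the lists below are to be read against these shares. Below, a rise or a fall means higher or lower in treated EpiSCs than in treated mES cells, not a change with the compound. Without the treated E3.5 EpiSC array 0 genes passed by limma, although 4280 had an unadjusted p under 0.05. Without the treated E5.5 EpiSC array 727 were called higher and 729 lower. Without either untreated EpiSC array the calls were those of the 3 treated arrays alone, 729 and 780. A second rule without a test counted genes at least 2-fold apart in both lines: 1799 were higher (11.1%) and 2218 lower (13.7%). At 4-fold the rule gave 816 higher (5.05%) and 841 lower (5.21%). The median over all genes was -0.34 on the log2 scale (-0.46 in the E3.5 line and -0.18 in the E5.5 line), and it moved to -0.20 under quantile normalisation, so list medians are to be read against that shift. In bulk RNA, fewer cells of a type and less RNA per cell cannot be told apart.

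**Figure D1:**
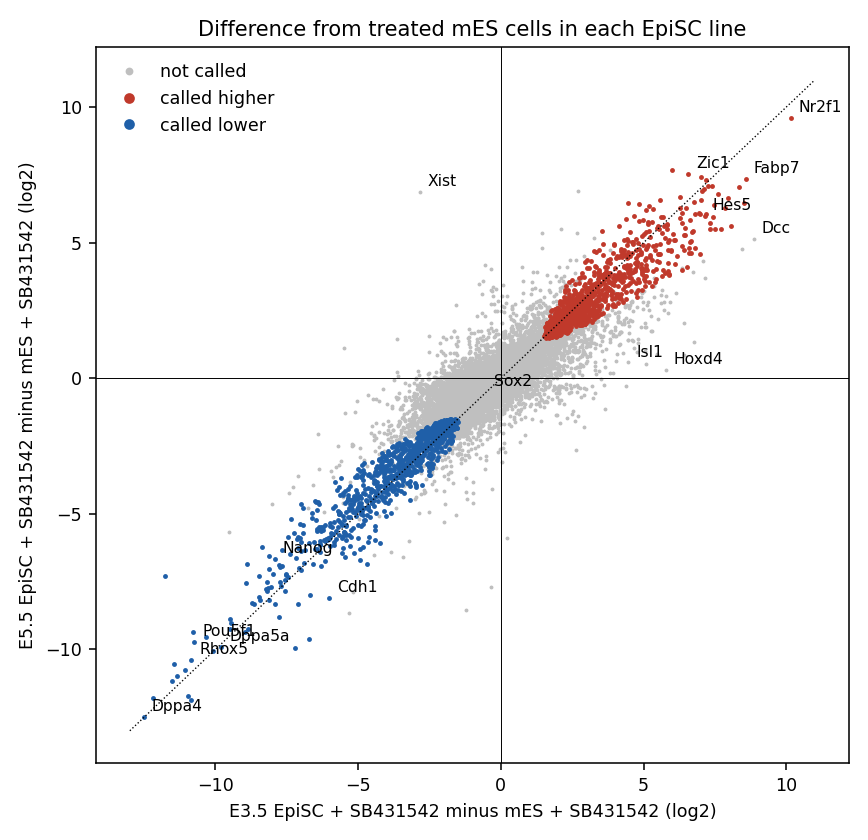
Each point is 1 of the genes tested, with its log2 difference from treated mES cells in the treated E3.5 EpiSC line on the horizontal axis and in the treated E5.5 line on the vertical axis. The 864 genes called higher and the 848 called lower lie near the diagonal, which the call itself favours because the gap between lines is its error term.

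Core pluripotency genes were lower in treated EpiSCs. Of 18 measured, 10 passed the test as lower and 0 as higher, and their median difference was -3.37. Pou5f1, which encodes Oct4, the POU factor at the centre of the pluripotency network, stood at 5.35 in treated mES cells, -5.39 in the treated E3.5 line and -4.38 in the treated E5.5 line. Both EpiSC arrays were far below the mES array, a fitted difference of -10.23 ± 0.51 (SE, adjusted p = 0.00681) or 1204-fold. Without the compound the same probe read 5.59, 5.73 and 5.88 in that order, a gap of only 0.22 ± 0.51. Nanog, the homeobox factor of the same network, read 2.82 in treated mES cells and -5.11 and -3.84 in the treated lines, a difference of -7.29 ± 0.68 (adjusted p = 0.011). Utf1, an embryonic chromatin factor, read 3.53 against -4.21 and -3.42. Tdgf1, the Nodal co-receptor Cripto, read 2.72 against -4.33 and -3.19. Eras, a Ras-like protein of ES cells, read 1.09 against -6.29 and -5.39. In all 4 of the genes just named after Pou5f1 both treated EpiSC arrays lay below the mES array. Dppa4 was above background on the mES array (3.61) and on neither treated EpiSC array, so it was at least 1247-fold lower (adjusted p = 0.00531).

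Sox2 did not follow. This SRY-box factor serves both pluripotent and neural progenitor cells, and it read 3.29 in treated mES cells, 2.77 in the treated E3.5 line and 2.80 in the treated E5.5 line. The difference of -0.50 ± 0.34 did not pass (adjusted p = 0.383). Lin28b, an RNA-binding protein, had a positive difference of 1.20 that did not pass either (adjusted p = 0.0851). Gdf3, a TGF-beta family ligand, was 6.34 log2 units lower but the lines were apart, at -5.39 and -2.002, and the test did not pass (adjusted p = 0.0584).

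**Figure D2:**
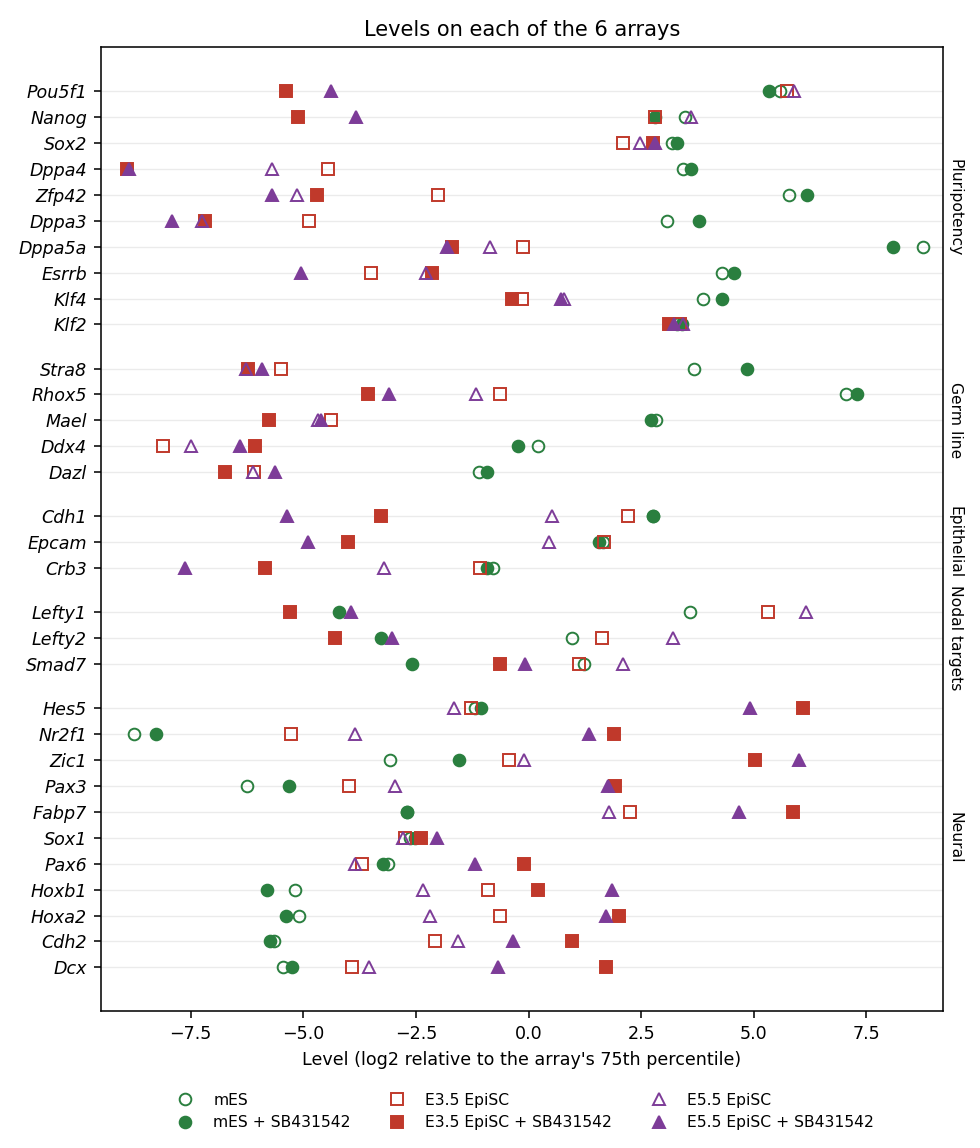
Levels (log2 signal relative to the array's 75th percentile) of selected genes on each of the 6 arrays, with 1 point per array. Pou5f1 and Nanog are high on 4 arrays and low only on the 2 treated EpiSC arrays, the germline genes are low on all 4 EpiSC arrays, and Hes5, Nr2f1, Zic1 and Pax3 are highest on the treated EpiSC arrays.

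Naive pluripotency genes were lower in larger number. Of 24 measured, 18 passed as lower and 0 as higher, with a median difference of -4.91 that was -5.01 in the E3.5 line and -5.14 in the E5.5 line. Zfp42, known as Rex1, read 6.17 in treated mES cells and -4.70 and -5.70 in the treated lines (difference -11.37 ± 1.35, adjusted p = 0.0157, and 0.0624 without the treated E5.5 array). Dppa5a, an RNA-binding protein of ES cells, read 8.10 against -1.69 and -1.80. The mES array was therefore higher than both EpiSC arrays by over 9 log2 units, a fitted difference of -9.85 ± 0.43 (adjusted p = 0.00499). Tdh, the threonine dehydrogenase on which mouse ES cells depend, read 7.22 against -1.75 and -2.16. Fbxo15, an F-box protein used as an ES cell reporter gene, read 5.58 against -5.21 and -3.77.

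Among the naive transcription factors, Esrrb (an orphan nuclear receptor) read 4.57 against -2.15 and -5.06, Nr5a2 (another nuclear receptor) differed by -7.67 ± 0.31 and Tfcp2l1 by -6.37. Klf4, the Krüppel-like factor, read 4.28 against -0.38 and 0.73 and was lower by a smaller amount (-4.11 ± 0.66, adjusted p = 0.0293). Dppa3, a maternal protein that protects methylation marks in the egg, was above background in treated mES cells only and at least 1408-fold lower in treated EpiSCs (adjusted p = 0.0109). These genes were already low in EpiSCs without the compound, where the list's median gap was -3.94. Klf5 (-4.85, adjusted p = 0.0907), Tbx3 (-4.61, adjusted p = 0.117) and Tet2 (-1.84, adjusted p = 0.0621) were at least 2-fold lower in both lines but did not pass. Others were near the mES level and did not pass: Klf2 read 3.41, 3.12 and 3.23 (difference -0.24 ± 0.31, adjusted p = 0.636, and of the opposite sign under quantile normalisation at 0.078), and Gbx2 differed by 0.50 without passing. Jam2, a junctional adhesion molecule, read 3.53 in treated mES cells and 2.20 and 3.04 in the treated lines, above the -0.70 and 0.05 of the untreated lines.

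Genes of the primed epiblast went both ways. Of 23 measured, 5 passed as lower and 3 as higher, with a median of -0.54; without the treated E5.5 array the counts were 3 and 2. Dnmt3b, the de novo DNA methyltransferase of the epiblast, read 4.63 in treated mES cells and 0.08 and 0.54 in the treated lines (difference -4.32 ± 0.36, adjusted p = 0.00947), while all 3 untreated arrays lay between 4.41 and 4.58. Pim2, a serine-threonine kinase, read 2.39 against -0.92 and -0.81, whereas untreated EpiSCs at 5.04 and 5.33 exceeded untreated mES cells at 2.89. Etv4, an ETS factor downstream of FGF, read 1.81 against -3.36 and -2.66. Fgf5, the FGF ligand that marks the primed epiblast, was low on all 3 treated arrays, at -5.48, -6.29 and -6.04 (difference -0.69 ± 0.60, adjusted p = 0.48). On the untreated arrays it read -2.62 in mES cells and 3.07 and 4.32 in the EpiSC lines. Fgf8 read -2.76, -2.48 and -2.90 under treatment and also did not pass (adjusted p = 0.9). Otx2, a head and epiblast homeobox factor, differed by -2.48 without passing (adjusted p = 0.275). Those that rose were Sfrp2, a secreted Wnt modulator (0.30 against 4.14 and 4.19), Sall2 (3.82) and Cd24a (2.75, adjusted p = 0.0624 without the treated E5.5 array).

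The feedback genes Lefty1, Lefty2 and Cer1 of the blocked pathway were low on all 3 treated arrays, and their differences did not pass the test. Lefty1 and Lefty2 are Nodal antagonists that Nodal itself induces. Lefty1 read -4.21 in treated mES cells and -5.30 and -3.94 in the treated lines, so the mES array lay between the EpiSC arrays (difference -0.41 ± 0.71, adjusted p = 0.714). Without the compound it read 3.58, 5.31 and 6.17. Lefty2 read -3.28 against -4.30 and -3.04 under treatment, with the mES array again between the lines. Cer1, another Nodal antagonist, was above background on none of the 3 treated arrays. Smad7, the inhibitory Smad, read -2.59 against -0.63 and -0.08, and its difference of 2.24 ± 0.54 did not pass (adjusted p = 0.0713). Of 18 measured genes of Nodal and Activin feedback and targets, 2 passed as lower, Tdgf1 and the corepressor gene Tgif1 (-1.81, adjusted p = 0.0364), and 0 as higher. That share, 11.1%, was near the 10.6% of all genes tested. Tgif1 was not called with only the 3 treated arrays or without the treated E5.5 array (adjusted p = 0.0589).

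Some ligands, receptors and mediators of TGF-beta and BMP signals had more RNA in treated EpiSCs. Of 20 measured, 6 passed as higher and 1 as lower (median 0.70). Smad3, a signal transducer, read -1.84 in treated mES cells and 0.76 and 0.60 in the treated lines (difference 2.52 ± 0.31, adjusted p = 0.0176). Tgfbr1, which encodes ALK5, a direct target of the compound, read 0.01 against 3.03 and 2.09 (2.55 ± 0.50, adjusted p = 0.046); its call was lost under quantile normalisation. Tgfb2, a ligand, was higher by 2.89 (adjusted p = 0.0309). The BMP receptor Bmpr1b was above background in the treated EpiSCs only and at least 18.1-fold higher, and Bmpr1a and Acvr2a also rose, by 1.69 and 1.61. The calls of Bmpr1a and Acvr2a were lost with only the 3 treated arrays and without the treated E5.5 array. That of Acvr2a was also lost under normexp background correction (limma adjusted p = 0.0863). That of Bmpr1a was also lost with the mean over a gene's probes (limma adjusted p = 0.0541). Eng, the co-receptor endoglin, was the one that fell, at -0.05 in treated mES cells against -5.92 and -4.83 (-5.32 ± 0.63, adjusted p = 0.0154). Smad2 and Smad4 differed by -0.08 and 0.69 and did not pass.

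Genes of the primitive streak and mesendoderm, other fates open to EpiSCs, were mostly not called. Of 25 measured, 1 passed as higher and 0 as lower (median -0.52). That gene was Wnt3, a ligand that starts the streak, at -4.86 in treated mES cells and -0.02 and 0.92 in the treated lines (5.31 ± 0.53, adjusted p = 0.0115). T, the streak factor Brachyury, read -4.10, -3.64 and -3.70 (0.42, adjusted p = 0.462) against 1.48 and 1.07 in the EpiSC lines without the compound. Foxa2, an endoderm and floor plate factor, read -2.82 against 1.63 and -0.76 and did not pass (adjusted p = 0.209). Eomes, Gsc and Mixl1, streak and endoderm factors, had differences of -1.46, -2.04 and -0.24, none past the threshold, and Gsc and Mixl1 were not above background in the treated E3.5 line.

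Germline genes were lower across most of their list. Of 26 measured, 20 passed as lower and 0 as higher, with a median difference of -5.58 (-5.45 with 7 dim genes set at their bound). Stra8, the meiosis gene that retinoic acid induces, read 4.85 in treated mES cells and -6.23 and -5.92 in the treated lines (difference -10.92 ± 0.46, adjusted p = 0.00499). Rhox5, an X-linked homeobox gene, read 7.29 against -3.56 and -3.11, and Tex19.1, a germ cell protein that restrains retrotransposons, read 5.46 against -4.63 and -4.59. In each the mES array stood about 10 log2 units above both EpiSC arrays (-10.62 ± 0.42 and -10.07 ± 0.39, each at adjusted p = 0.00499).

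Meiotic and piRNA genes were among those that were lower. The synaptonemal complex genes Sycp1 and Sycp3 were above background in treated mES cells at 0.41 and 0.23 but on neither treated EpiSC array, and were at least 136-fold and 120-fold lower. Morc1 was at least 701-fold lower and Piwil2, a piRNA-binding Argonaute, at least 73.9-fold lower (adjusted p = 0.0583 without the treated E5.5 array). Mael, a piRNA pathway protein, read 2.71 against -5.77 and -4.60 (-7.89 ± 0.57, adjusted p = 0.00793). Ddx4, the germ cell RNA helicase Vasa, read -0.25 against -6.08 and -6.40, and Dazl, a germ cell RNA-binding protein, read -0.92 against -6.73 and -5.63. For Ddx4 the treated E5.5 value and for Dazl the treated E3.5 value were not above background. These genes were low in untreated EpiSCs as well, where the list's median gap was -5.14 and 14 of 26 passed as lower. Those not called include Tdrd12 (3.73 against -3.55 and -0.30, adjusted p = 0.0729), Asz1 and Sycp2. Brdt, a testis bromodomain gene, was the opposite, not above background in treated mES cells and at -2.79 and -4.60 in the treated lines (at least 5.91-fold higher), without passing (adjusted p = 0.109). With genes required to be above background on all 6 arrays, 9 of the list passed as lower, since genes that were dim in EpiSCs leave the test.

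The promoters of these genes are shown because several hold the letters CACGTG, the E-box that Max and Mga bind in germline repression. Sequences come from the RefSeq promoter table of assembly GRCm38.p6. The 250 bases before the gene start are printed 5' to 3' along the gene's strand, and capitals mark CACGTG, which reads the same on both strands.
Mael, chr1:166238745-166238994, minus strand: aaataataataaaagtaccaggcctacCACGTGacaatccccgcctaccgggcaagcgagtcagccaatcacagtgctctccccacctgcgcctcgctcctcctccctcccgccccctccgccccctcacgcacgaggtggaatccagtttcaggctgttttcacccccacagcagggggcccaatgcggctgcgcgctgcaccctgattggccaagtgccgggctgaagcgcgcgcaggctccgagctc
Ddx4, chr13:112652311-112652560, minus strand: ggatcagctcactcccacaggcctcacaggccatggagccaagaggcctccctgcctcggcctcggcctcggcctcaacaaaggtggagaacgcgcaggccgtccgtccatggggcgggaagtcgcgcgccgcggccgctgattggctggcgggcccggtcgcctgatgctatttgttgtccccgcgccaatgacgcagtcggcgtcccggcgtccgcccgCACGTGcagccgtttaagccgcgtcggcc
Searched in windows of 300 bases (250 before to 50 after the start), CACGTG was present for 11 of 22 germline genes with a promoter in the table, or 50%. Of those 11, all but Brdt and Tdrd1 were called lower: Ddx4, Fkbp6, Hormad1, Mael, Mov10l1, Slc25a31, Sycp1, Sycp3 and Taf7l. Of the other 11, without the letters, 7 were called lower too: Dazl, Rhox5, Sohlh2, Stra8, Tex101, Tex13b and Tex19.1. The share over all 27025 genes in the table was 8.09%. It was 10.4% of tested genes, 15.6% of those called lower and 7.44% of those called higher. Mael carries the letters 223 bases before its start and Ddx4 29 bases before. A match is a description of letters and not of binding.

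Genes of epithelial junctions were lower. Of 29 measured, 9 passed as lower and 0 as higher, 23 were at least 2-fold lower in both lines, and the median was -2.63 (-2.43 with dim genes at their bound). Only 4 passed without the treated E5.5 array. Cdh1, the adherens junction protein E-cadherin, read 2.75 in treated mES cells and -3.27 and -5.35 in the treated lines (difference -7.06 ± 1.11, adjusted p = 0.0284, and 0.0616 without the treated E5.5 array). Untreated levels were 2.76, 2.20 and 0.53, so the 4 arrays other than the treated EpiSCs lay above them. Epcam, an epithelial adhesion molecule, read 1.56 against -4.01 and -4.89 (-6.01 ± 0.67, adjusted p = 0.0142, and 0.0517 without the treated E5.5 array). Crb3, an apical polarity protein, read -0.92 against -5.86 and a treated E5.5 value of -7.62 that was not above background (adjusted p = 0.0467). Its call was lost under quantile normalisation, with the mean over a gene's probes and without the treated E5.5 array (adjusted p = 0.0972). The tight junction gene Cldn4 fell by 5.10 and the desmosome gene Pkp3 by 5.67 (adjusted p = 0.0686 without the treated E5.5 array). The epithelial regulators Grhl2 (-5.08, adjusted p = 0.0548) and St14 (-4.65, adjusted p = 0.0514) just missed the threshold. The keratins Krt8 and Krt18, at 0.59 and 0.92, were not lower.

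Promoters of this list are shown for the letters CAGGTG, the E2-box that Zeb and Snail repressors recognise, which share the frame CANNTG with CACGTG but differ from it inside, so that a match to one is never a match to the other. Capitals mark CAGGTG or, on the other strand, CACCTG.
Epcam, chr17:87635729-87635978, plus strand: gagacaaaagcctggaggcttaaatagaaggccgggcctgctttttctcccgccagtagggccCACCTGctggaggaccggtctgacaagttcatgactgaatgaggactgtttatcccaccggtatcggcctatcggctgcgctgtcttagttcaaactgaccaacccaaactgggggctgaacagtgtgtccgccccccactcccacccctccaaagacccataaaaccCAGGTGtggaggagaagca
Crb3, chr17:57061951-57062200, plus strand: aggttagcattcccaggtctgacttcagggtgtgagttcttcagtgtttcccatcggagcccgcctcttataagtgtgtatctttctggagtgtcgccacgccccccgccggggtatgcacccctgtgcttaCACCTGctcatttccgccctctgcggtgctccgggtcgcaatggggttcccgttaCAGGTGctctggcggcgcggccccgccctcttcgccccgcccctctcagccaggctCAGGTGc
In the windows of 300 bases the letters were present for 13 of 16 epithelial genes with a promoter in the table (81.2%), among them Ap1m2, Cldn4, Crb3, Epcam and Marveld2 of those called lower. They were absent from that of Ovol2, which was called lower too. All genes in the table held them in 22.6%, genes called lower in 33.7% and genes called higher in 22.8%. Krt8 and Krt18, which were not lower, also held them. So did Cldn3, Cldn6, Cldn7, Ocln, Rab25 and Tjp3, which were not called.

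Some genes of mesenchymal transition were higher. Of 22 genes of mesenchymal transition 5 passed as higher and 0 as lower, with a median of 0.01, and without the treated E5.5 array 3 passed. Cdh2, the neural and mesenchymal N-cadherin, read -5.74 in treated mES cells and 0.96 and -0.35 in the treated lines (6.05 ± 0.64, adjusted p = 0.0126). Zeb2, a repressor of E-cadherin that also acts in neural development, read -2.69 against 1.89 and 1.93 (4.60 ± 0.31, adjusted p = 0.00762), and Zeb1 read -0.85 against 1.96 and 1.22 (adjusted p = 0.0452). The call of Zeb1 was lost without the treated E5.5 array (0.0549) and under quantile normalisation (0.0510). Both Zeb genes were higher in both lines. Snai1 and Snai2 differed by -0.22 and -0.12, Twist1 by 0.65 and the matrix gene Fn1 by -1.44, none past the threshold.

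Neural progenitor genes were higher in treated EpiSCs. Of 32 measured, 17 passed as higher and 0 as lower, 26 were at least 2-fold higher in both lines, and the median was 3.53 (3.53 in the E3.5 line and 3.01 in the E5.5 line). Fabp7, the fatty acid binding protein of radial glia, read -2.70 in treated mES cells and 5.87 and 4.66 in the treated lines (7.97 ± 0.61, adjusted p = 0.00861), a 251-fold difference. Zic1, a zinc finger factor of the dorsal neural tube, read -1.54 against 5.03 and 5.99 (7.05 ± 0.51, adjusted p = 0.00793). Both treated EpiSC arrays were high and the mES array low in each. Pou3f2, the neural POU factor Brn2, read -4.68 against 1.81 and 1.61. Meis2, a TALE homeobox factor, read -1.70 against 5.30 and 4.87, and Sox11, an SRY-box factor of committed neural precursors, differed by 5.07 ± 0.41. Nes, the intermediate filament nestin, read 0.25 against 3.88 and 3.87 (3.62 ± 0.54, adjusted p = 0.0254).

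Several standard neuroectoderm markers were not among the calls. Sox1, the earliest neuroectoderm SRY-box factor, read -2.52, -2.38 and -2.04 (0.31, adjusted p = 0.571), with all 3 arrays close together. Pax6, the paired-box factor of radial glia, read -3.23 against -0.11 and -1.20, higher in both lines but not past the threshold (2.58 ± 0.54, adjusted p = 0.0526). Ncam1 (3.95, adjusted p = 0.0533) and Sox3 (1.51, adjusted p = 0.0937) also missed it. Part of the neural difference was present without the compound: the list's untreated median gap was 1.41, with Fabp7 at -2.69 in untreated mES cells and 2.26 and 1.78 in the untreated lines.

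**Figure D3:**
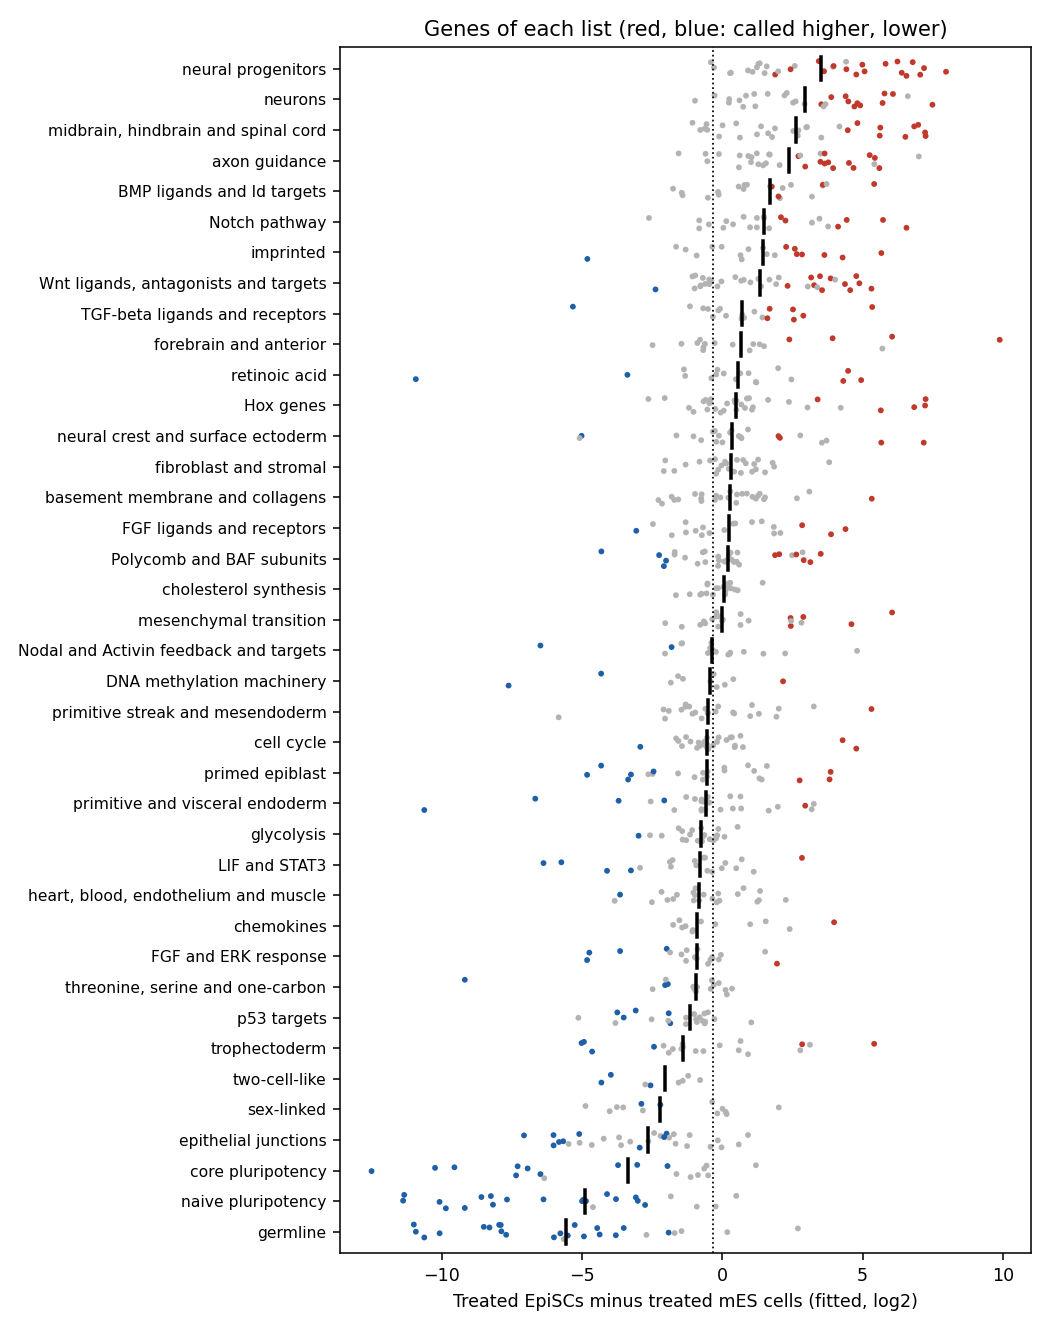
Fitted log2 difference of treated EpiSCs from treated mES cells (horizontal axis) for each gene of the 39 lists, 1 point per gene with a small random vertical offset, red where called higher, blue where called lower and grey where not called. Black bars mark the list medians and the dotted line the median of all genes, -0.34; germline genes (-5.58) and naive pluripotency genes (-4.91) have the lowest medians and neural progenitors (3.53) the highest, and genes at background on 1 side are drawn at their fitted value.

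Some genes that mark position along the hindbrain and spinal cord were higher. Of 30 genes of midbrain, hindbrain and spinal cord, 9 passed as higher and 0 as lower (median 2.61, or 2.33 with 4 dim genes at their bound). Hoxa2, which patterns the anterior hindbrain, read -5.38 against 2.005 and 1.73 (7.24 ± 0.70, adjusted p = 0.0112). Hoxb2 read -3.30 against 3.71 and 4.12 (7.22 ± 0.48, adjusted p = 0.00762). Hoxb1, a rhombomere gene, read -5.81 against 0.20 and 1.85 (adjusted p = 0.0209, 0.0558 without the treated E5.5 array). Irx5, an Iroquois homeobox gene, was at least 126-fold higher (adjusted p = 0.00499), and Irx3 differed by 6.52 and Irx2 by 4.47. Olig3 and Dbx1, factors of dorsal and intermediate progenitors, differed by 5.63 and 5.61, and Olig3 had an adjusted p of 0.0586 without the treated E5.5 array. In each of these genes both treated EpiSC arrays exceeded the mES array. The list's 6 negative fitted values were those of En2 (-0.63), Pax2 (-0.56), Pax5 (-0.79), Pax8 (-0.11), Wnt8b (-1.06) and Lmx1b (-0.54), and none passed. En1 (2.71, adjusted p = 0.198) and Gbx2 (0.50) were positive without passing.

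Of 18 forebrain and anterior genes, 4 passed as higher and 0 as lower, with a median of 0.67. They were Nr2f1, an orphan nuclear receptor of the cortex and eye that was at least 235-fold higher (adjusted p = 0.00762), its relative Nr2f2 (-2.25 against 4.10 and 3.49), Sp8 (3.93) and Lhx2 (2.39), whose call was lost under normexp background correction and without the treated E5.5 array (adjusted p = 0.0552). The anterior homeobox gene Six3 differed by -0.89 and did not pass. A test between the lists was not made.

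Of 32 Hox genes 5 passed as higher and 0 as lower, and 2 without the treated E5.5 array. They included Hoxb3 (-5.52 against -0.44 and 0.70) and the more posterior Hoxa9 (3.40, adjusted p = 0.0346) beside the anterior genes above. Both missed the threshold without the treated E5.5 array, at 0.0513 and 0.0521. The Hox median was 1.29 in the E3.5 line and -0.14 in the E5.5 line. Hoxd4 showed that gap most, at -6.06 in treated mES cells, -0.29 in the treated E3.5 line and -5.77 in the treated E5.5 line, so that 1 line was high and the other near the mES array.

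Notch genes were in part higher. Of 23 measured, 6 passed as higher and 0 as lower (median 1.48). Hes5, the Notch effector of neural progenitors, read -1.06 in treated mES cells and 6.08 and 4.92 in the treated lines, against -1.20, -1.28 and -1.66 on the untreated arrays. The 2 treated EpiSC arrays alone were high, by 6.56 ± 0.58 (adjusted p = 0.0102). Nrarp, a feedback inhibitor that Notch induces, read -5.09 against 0.73 and 0.55 (5.72 ± 0.50, adjusted p = 0.01). Among the regulators of the receptor, the glycosyltransferase genes Lfng and Mfng differed by 4.43 ± 0.33 and 2.25. Among ligands, Dll3 read -0.64 against 3.91 and 3.05 and Jag1 read -1.22 against 1.20 and 0.54. The ligand Dll1 missed the threshold (3.46, adjusted p = 0.0574), and Hes1 (0.38), the receptor Notch1 (1.23) and the DNA-binding partner Rbpj (-0.82) did not pass.

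The promoter of Hes5 is shown because it held the letters GTGGGAA, the core that Rbpj binds, on both strands of its upstream window. Capitals mark GTGGGAA or, on the other strand, TTCCCAC.
Hes5, chr4:154960673-154960922, plus strand: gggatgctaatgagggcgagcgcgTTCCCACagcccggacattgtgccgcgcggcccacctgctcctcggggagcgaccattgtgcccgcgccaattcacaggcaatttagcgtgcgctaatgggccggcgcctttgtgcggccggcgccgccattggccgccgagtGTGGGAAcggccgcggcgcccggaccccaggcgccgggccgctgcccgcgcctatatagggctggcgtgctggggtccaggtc
In windows of 300 bases, 3 of 18 Notch genes with a promoter in the table held those letters (16.7%), namely Hes5, Hey2 and Lfng. The share was 7.25% of all genes, 8.04% of genes called higher and 8.61% of genes called lower. Hey2 was not called, and Nrarp, Dll3 and Jag1, which were called higher, lacked the letters.

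Neuronal genes were higher too, with a wider gap between the lines. Of 29 measured, 11 passed as higher and 0 as lower, and 18 passed without the treated E5.5 array. The median was 4.28 in the E3.5 line and 1.78 in the E5.5 line. Dcx, the microtubule protein doublecortin of newborn neurons, read -5.26 in treated mES cells and 1.72 and -0.68 in the treated lines (5.78 ± 1.02, adjusted p = 0.0361). Gap43, a growth cone protein, read -3.34 against 1.52 and 1.43 (4.81 ± 0.34, adjusted p = 0.00768). Map2, a dendritic protein, and Elavl4, a neuronal RNA-binding protein, differed by 4.39 ± 0.58 and 4.91. Nefm, a neurofilament subunit, was high in the E3.5 line and less so in the E5.5 line (-4.85 against 3.60 and -0.08) and did not pass (adjusted p = 0.0746). Tubb3, the neuronal tubulin, read 1.43 against 4.20 and 3.09 (2.22 ± 0.54, adjusted p = 0.0734). Stmn2 (0.24), a gene of maturing neurons, did not pass.

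Axon guidance genes were higher in 12 of 32 and lower in 0 (median 2.37, or 2.27 with dim genes at their bound). The ephrin ligand gene Efnb1 read -1.13 in treated mES cells and 3.97 and 4.28 in the treated lines (5.25 ± 0.34). Plxna2, a semaphorin receptor, read -2.18 against 2.99 and 3.52 (5.43 ± 0.38), and Rgma, a repulsive guidance molecule, differed by 5.59. Both arrays of treated EpiSCs were high in these genes. Robo2, a Slit receptor, was at least 7.95-fold higher and the ligand Slit2 differed by 3.64. Dcc, the netrin receptor, was not above background in treated mES cells and read 0.55 and -3.15 in the treated lines, at least 31.2-fold higher but not past the threshold (adjusted p = 0.0564).

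Neural crest and surface ectoderm genes gave 4 higher and 1 lower of 23 (median 0.33), and 2 higher without the treated E5.5 array. Pax3, a paired-box factor of the dorsal neural tube and crest, read -5.33 against 1.93 and 1.77 (7.18 ± 0.52, adjusted p = 0.00793), and Sox9, a crest and glial SRY-box factor, read -5.19 against 0.53 and 0.41 (5.66 ± 0.31, adjusted p = 0.00688). The crest specifiers Foxd3 (-1.63), Tfap2a (0.00) and Snai2 (-0.12) did not pass. Tfap2c, an AP-2 factor of ES cells, trophoblast and surface ectoderm, was lower, at 3.27 against -2.17 and -1.31 (adjusted p = 0.0133).

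Among the signals that pattern the neural tube, Wnt genes were higher in 11 of 36 and lower in 1 (median 1.33). Fewer passed as higher, and more as lower, without the treated E5.5 array. Wnt3a, a dorsal midline ligand, read -4.19 against -0.06 and 1.44, with an adjusted p of 0.0563 without the treated E5.5 array. Axin2, a feedback target of the canonical pathway, read -1.53 against 1.52 and 1.74 (3.16 ± 0.35, adjusted p = 0.014). The receptor gene Fzd10 differed by 4.56 and the cyclin Ccnd2 by 4.77 ± 0.49. Both lines were high for each. Notum, an enzyme that inactivates Wnt proteins, was lower by 2.38, a call lost under normexp and with only the 3 treated arrays.

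BMP genes gave 4 higher and 0 lower of 21 (median 1.70), and 2 without the treated E5.5 array. Id2, an inhibitor of bHLH factors, read -0.78 against 4.19 and 5.06 (5.41 ± 0.52, adjusted p = 0.0112). Its relatives Id1 (0.83 against 2.69 and 3.86, adjusted p = 0.13) and Id3 (1.99 against 3.67 and 4.59, adjusted p = 0.112) were above the mES array in both lines and did not pass. Retinoic acid genes gave 3 higher and 2 lower of 18. The retinoid-binding proteins Crabp2 (-1.21 against 3.31 and 4.17) and Crabp1 (1.93 against 5.46 and 7.36) and the degrading enzyme Cyp26b1 (4.31, adjusted p = 0.0625 without the treated E5.5 array) rose, while Stra8 and the receptor Rarg fell.

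Some targets of FGF signals were lower. Of 19 genes of FGF and ERK response 4 passed as lower and 1 as higher (median -0.91). The higher one was Phlda1 (1.95), a call lost with only the 3 treated arrays and without the treated E5.5 array. Spry4, a feedback inhibitor of the pathway, read 0.38 in treated mES cells and -4.19 and -4.53 in the treated lines (-4.74 ± 0.46). Etv4, Etv5 and Etv1, its ETS targets, differed by -4.82, -3.64 and -1.98, and both EpiSC arrays were below the mES array in all 3. Etv1 was lost as a call with only the 3 treated arrays and without the treated E5.5 array. Dusp6, a phosphatase of ERK, differed by -0.51 and did not pass. Among ligands and receptors Fgfr3, a receptor of neural progenitors, read -2.18 against 2.75 and 1.67, and the co-receptor Klb was lower by 3.07.

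LIF and STAT3 genes gave 4 lower and 1 higher of 20. Apart from Klf4, Tfcp2l1 and Pim2 the lower call was Sgk1, a kinase (-5.73, adjusted p = 0.0519 without the treated E5.5 array), and the higher one the kinase gene Jak2 (2.84). Socs3, the feedback inhibitor of STAT3, split the lines at 3.78 in treated mES cells, 0.43 in the treated E3.5 line and 3.60 in the treated E5.5 line.

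Genes of chromatin machinery moved in both directions. Of 11 DNA methylation genes 2 passed as lower and 1 as higher, and with only the 3 treated arrays 2 and 0. Dnmt3l, the cofactor of the de novo methyltransferases, read 4.64 against -3.35 and -2.59 (-7.61 ± 0.49, adjusted p = 0.00762) and was low in untreated EpiSCs as well, at -2.52 and -1.92. Dnmt3l and Dnmt3b were the 2 genes called lower. Dnmt3a missed the threshold (-1.58, adjusted p = 0.0515), and the maintenance enzyme Dnmt1 (-0.31) and its partner Uhrf1 (-0.43) did not pass.

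Of 33 Polycomb and BAF subunits 6 passed as higher and 4 as lower. Cbx7, the Cbx subunit of PRC1 in ES cells, read 3.60 in treated mES cells and -0.44 and -0.97 in the treated lines (-4.31 ± 0.39, adjusted p = 0.0105). Its paralogues Cbx8 and Cbx2 went the other way, by 3.14 and 1.88. The PRC1 subunit gene Phc1 and the PRC2 genes Mtf2 and Eed were lower by about 2 log2 units (-2.25, -2.08 and -2.005). Eed and Mtf2 were not called with only the 3 treated arrays. Without the treated E5.5 array Phc1 and Eed missed the threshold (0.0589 and 0.0582), and 2 of the list passed as lower. Ezh2, the PRC2 methyltransferase, differed by 0.07. The BAF ATPase gene Smarca2 rose by 3.51 ± 0.34, but by 1.38 and without a call when the mean over its probes was used.

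Imprinted genes, expressed from 1 parental allele, gave 7 higher and 1 lower of 19 (median 1.45). Nnat, neuronatin, read -2.01 in treated mES cells and 4.00 and 3.30 in the treated lines (5.67 ± 0.47, adjusted p = 0.00947). Cdkn1c, the cell cycle inhibitor p57, read 0.92 against 4.98 and 5.42 (4.29 ± 0.39, adjusted p = 0.0107), and Grb10, Ndn, Sgce, Mest and Gnas were higher by 2.27 to 3.64, Mest with an adjusted p of 0.0655 without the treated E5.5 array. Phlda2, a placental growth regulator, was lower by 4.81. Genes of p53 response gave 5 lower of 22 and 0 higher, and 3 without the treated E5.5 array: Tigar (-3.74), Ccng1 (-3.51), Phlda3 (-3.09), Trp53inp1 (-1.91) and Bax (-1.85). Cdkn1a, the p21 inhibitor, differed by -1.29 and did not pass.

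Lists of other tissues and of metabolism held calls in both directions. Over all genes tested 5.35% were called higher and 5.25% lower. Of 28 genes of primitive and visceral endoderm 4 passed as lower, Rhox5, Apoa2, Cubn and Amn, and 1 as higher, Plat. Trophectoderm gave 4 lower and 2 higher of 21, and heart, blood, endothelium and muscle 1 lower of 23. Of 8 two-cell-like genes 3 passed as lower, Zscan4c (-0.05 against -4.18 and -4.54), Usp17la and Tcstv1. Cholesterol synthesis gave 0 of 21 and glycolysis 1 of 23 (Pdk1, -2.98, adjusted p = 0.0559 without the treated E5.5 array). Threonine, serine and one-carbon metabolism gave 3 lower of 17, Tdh, Gcat and Gldc, and 1 without the treated E5.5 array. The calls of Gcat, Gldc and Amn were also lost with only the 3 treated arrays, and that of Gldc under quantile normalisation (adjusted p = 0.0568), where 2 of the list passed. Of 30 cell cycle genes 2 rose, Cdkn1c and Ccnd2, and Cdkn2a fell, though not under normexp or without the treated E5.5 array. The share of cell cycle genes called, 10%, was near the 10.6% of all genes tested.

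Markers of fibroblasts and feeder cells were present on all 3 treated arrays, with 7 of 7 above background on each. Their summed signal was 44.9 in treated mES cells, 56.8 in the treated E3.5 line and 108.6 in the treated E5.5 line, and 39.6, 72.3 and 103.5 on the untreated arrays in the same order. None was called. Tagln, a smooth muscle and fibroblast protein, read -0.05, 2.07 and 5.45 (adjusted p = 0.167). The brightest probes weigh most in these sums, and in the treated E5.5 line they were Tagln and Acta2 (5.40). The markers did not all go with the sum. Tagln, Acta2, Col1a1 and Col1a2 were higher in the treated E5.5 line than in treated mES cells. Postn (-4.04 against -3.49), Thy1 (-0.53 against 0.68) and Col3a1 (0.812 against 0.997) were lower there. The part of such cells in the differences above was not tested. Of the fibroblast and stromal list of 26 genes 0 passed in either direction by limma, and 4 were at least 2-fold higher and 1 at least 2-fold lower in both lines. Summed endoderm markers were 2.31, 1.09 and 1.85, trophoblast markers 0.164, 0.852 and 0.196 and blood and endothelial markers 0.194, 0.0825 and 0.122.

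Outside the lists, the largest measured falls included Cyct, the testis cytochrome c (4.15 against -5.32 and -5.08), and Rpl39l, a testis-enriched ribosomal protein gene (4.20 against -4.68 and -5.07). Genes above background in treated mES cells only included Fmr1nb, a testis antigen gene, at least 999.9-fold lower, and Pramel13, at least 732-fold lower. On the other side Tspan18, a tetraspanin, read -3.50 against 4.44 and 3.15, and Cacna1g, a T-type calcium channel, read -5.25 against 1.88 and 1.72. Megf10 was at least 76.5-fold higher, Ptprd, a neuronal phosphatase receptor, at least 74.1-fold and the endothelin ligand Edn1 at least 54.8-fold.

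The treated gap between the cell classes was then set against the untreated gap. The difference of the gaps passed for 0 of 16154 genes (0%) by limma, with 1110 at an unadjusted p under 0.05 and a smallest adjusted p of 0.287. A statement that any gene differs only in treated cells is therefore not carried by this test, and what follows describes sizes. Of the 864 genes called higher under treatment, 637 (73.7%) were at least 2-fold higher without it too, 222 (25.7%) lay within 2-fold and 5 (0.579%) were at least 2-fold lower. Of the 848 called lower, 654 (77.1%) were at least 2-fold lower without it, 185 (21.8%) within 2-fold and 9 (1.06%) the opposite. These untreated sizes needed no signal above background. The matching shares over all genes tested were not counted, so these percentages stand without a base rate.

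The untreated gap alone passed for 242 genes (1.5%), 63 higher and 179 lower. Of those 63, 50 were also called higher under treatment, which is 79.4% of the untreated and 5.79% of the treated calls. Of the 179, 168 were also called lower, 93.9% of the untreated and 19.8% of the treated calls. Over all genes tested 5.35% were called higher under treatment and 5.25% lower. Both comparisons come from 1 fit and share each gene's variance, which favours overlap. No gene was called in opposite directions. The lists differed in how much of the gap was present without the compound: germline genes had medians of -5.58 treated and -5.14 untreated, core pluripotency genes -3.37 and -0.40, epithelial junction genes -2.63 and -0.75 and neural progenitor genes 3.53 and 1.41. Pou5f1 had a treated gap of -10.23, an untreated gap of 0.22 and a difference of the gaps of -10.45 ± 0.73 (adjusted p = 0.287). Hes5 had gaps of 6.56 and -0.27 (6.83 ± 0.82, adjusted p = 0.287) and Fgf5 of -0.69 and 6.32 (-7.00 ± 0.85, adjusted p = 0.287). For Dppa5a, at -9.85 and -9.24, the gaps were near each other (-0.61 ± 0.61, adjusted p = 0.876).

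**Figure D4:**
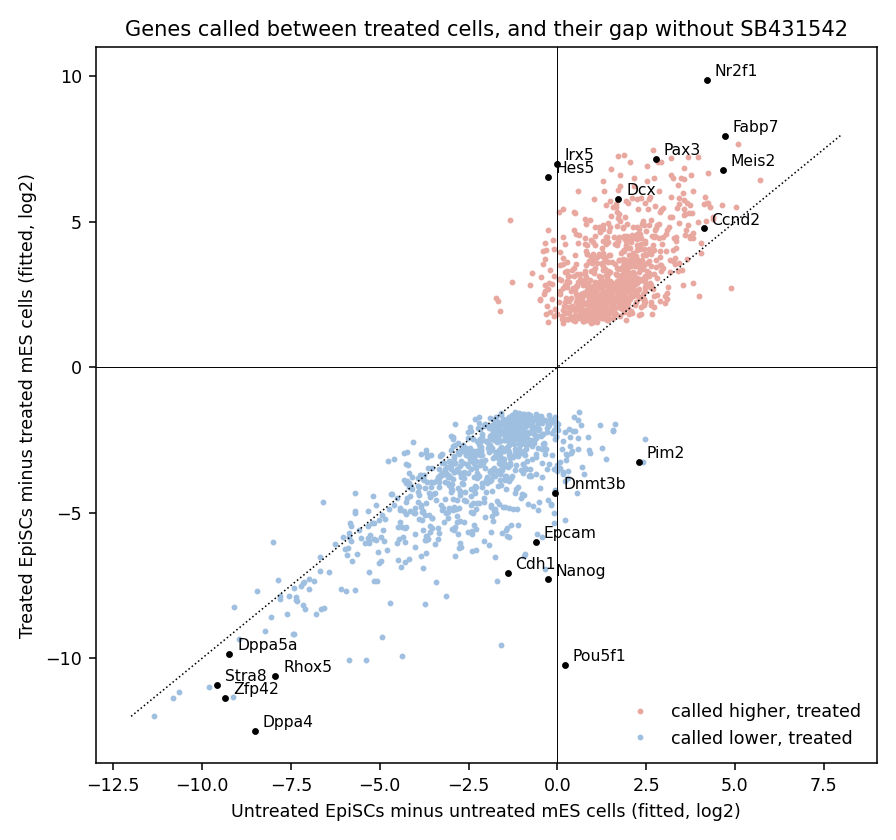
Fitted log2 difference of EpiSCs from mES cells without the compound (horizontal axis) and with it (vertical axis) for the 1712 genes called under treatment, with the dotted line marking equal gaps. Pou5f1 and Hes5 lie near 0 on the horizontal axis and at -10.23 and 6.56 on the vertical axis, while Dppa5a lies near the line of equal gaps.

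The treated lines also differed from each other. In the E3.5 line 2524 genes (15.6%) were at least 2-fold higher than in treated mES cells and 4563 (28.2%) lower, and in the E5.5 line 2223 (13.8%) and 2613 (16.2%). A total of 725 were 2-fold higher only in the E3.5 line and 424 only in the E5.5 line, and genes past 2-fold in opposite directions numbered 9 and 16. With 1 array per line this is a description. The largest gaps among genes above background on all 3 arrays included neural patterning genes that were high in the E3.5 line alone: Isl1, a motor neuron LIM factor (-4.19 in treated mES cells, 0.27 and -3.61), Nkx2-2, a ventral progenitor factor (-5.60, -0.56 and -4.61), and Nkx6-2 (1.07, 4.29 and 0.32). Cnn1, the smooth muscle calponin, was high in the E5.5 line alone (-1.63, -1.98 and 2.40). Sex-linked genes split the lines as well. Xist, the RNA of the inactive X, read -5.49 in treated mES cells and 1.38 in the treated E5.5 line and was not above background in the treated E3.5 line, and the Y-linked gene Eif2s3y read 2.51, 1.30 and -6.04, so the E5.5 line stood apart from the other 2 arrays.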

How the data were processed

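Cy3-labelled cRNA from 6 cell samples was run on Agilent arrays, 1 sample each, per the labels' protocols, and the sample titles gave the groups. The deposited files hold the processed signal, an intensity on a linear scale that Agilent Feature Extraction 10.7.1.1 had background-subtracted and detrended, per the file headers. Version 9.1 is the one in the submitters' processing notes. Flags for spots above background are deposited marks of 0 or 1. The deposited value table held the same intensities at 45018 of 45018 spots.

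Repeat spots of a probe were averaged after control spots and outliers had been dropped. A level is the log2 processed signal relative to the 75th percentile of non-control spots (1280 for treated mES cells, 1801 for the treated E3.5 EpiSC line and 1459 for the treated E5.5 line). Of 41174 probes, 24373 were named through the RefSeq gene table of GRCm38.p6, and the other 16801 were not used here. Probe coordinates are not given, because the headers refer to a different assembly. The probe with the highest mean signal stood for each of 17015 genes, and 16154 that were above background on at least 1 array were tested. Of 594 called genes with several probes, 4 had a probe at least 2-fold the opposite way.

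Tests used lmFit and eBayes of limma 3.58.1 under R 4.3.3, with p-values adjusted by Benjamini-Hochberg over all genes tested and a threshold of 0.05, and the scripts were tested on simulated data. The number of arrays limits the precision. Where a gene was at background on every array of 1 side, "at least N-fold" sets the brighter mean against a floor for each dim array, namely its lowest signal above background or that gene's reading if higher. Named genes were a list of 81 (79 measured), the 15 largest measured rises and falls called, the 8 largest bounds each way, up to 6 members of each list and direction, and the 10 widest gaps between lines; not all are printed, and some are not reported here. The members and lists (864 genes, 805 measured) were chosen with earlier results of these data known. Genes named outside this rule were chosen after their values were seen, as were the 9 motifs searched in the promoter table.

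Alternatives were normexp background correction (offset 50, on the median signals, as the files hold no mean signal), median centring, quantile normalisation, the value table, other filters, the mean over probes, the line as a block, only treated arrays, and each array left out. The lines pair treated with untreated arrays by origin.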

Additional observations from a re-analysis of the deposited data

Results flagged for a closer look

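For 5 named genes the EpiSC lines stood on opposite sides of the mES cells with and without SB431542, in both lines each time. Pim2 was lower by 3.26 log2 units in treated EpiSCs (-3.26) and higher in untreated EpiSCs (2.29). Etv1 had a treated gap of -1.98 and an untreated gap of 1.20. Lamb1, a laminin chain, had gaps of -2.15 and 1.07. Aldh1a3, a retinoic acid enzyme, had gaps of -1.32 and 1.52, but its probe was not above background on the treated E5.5 EpiSC and untreated mES arrays, so those gaps hold background signal. Tubb3 went the other way, with a treated gap of 2.22 and an untreated gap of -1.53. None of these 5 passed the test of the difference of the gaps, in which 0 genes passed by limma.

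For 2 named genes the fitted values of the treated lines lay on opposite sides of treated mES cells. Xist differed by 6.86 in the E5.5 line. Its value of -2.84 in the E3.5 line rests on a signal not above background and is no measured size. Lrriq3 differed by -2.50 and 1.57. The difference between the lines was not tested, since each line has 1 treated array.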

How the results depend on the processing

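The counts of called genes depended on 1 array. Over the settings that leave out 1 array, genes called higher ran from 0 to 864 and genes called lower from 0 to 848, with 0 in both directions without the treated E3.5 EpiSC array; the cause was not tested. Genes at least 2-fold lower numbered 2218 in both lines. Counted in 1 line they numbered 4563 in the E3.5 line and 2613 in the E5.5 line, counts that cannot be smaller than that for both. A 4-fold rule in both lines gave 816 higher and 841 lower. With the line as a fixed block (replicate block, pairing treated and untreated arrays of a line) 1164 genes were called higher and 1266 lower, and 1708 of the 1712 calls were shared. The line as a random block could not be fitted. Under normexp, median centring, quantile normalisation, the value table, no filter, the filter to genes above background on all 6 arrays and the mean over probes, the counts ran from 811 to 969 higher and from 823 to 928 lower. Fgf8 turned from 0.07 to -0.0835 under normexp and Klf2 from -0.24 to 0.078 under quantile normalisation. The sign turned with 1 treated EpiSC array left out, over ranges of -1.65 to 0.39 for En2, -0.14 to 0.28 for Fgf8, -1.09 to 0.26 for Lefty1, -1.02 to 0.24 for Lefty2, -2.50 to 1.57 for Lrriq3, -0.75 to 3.22 for Nkx6-2, -0.11 to 1.64 for Cer1, -0.34 to 4.03 for Cnn1, -0.78 to 3.47 for Fgb and -2.84 to 6.86 for Xist. Cer1 was not above background on the 3 treated arrays, nor Xist in the treated E3.5 line, so their values and signs there are those of background signal. None of those was called, and the causes were not tested.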

Other observations

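Gene families outside the lists were picked after their values were seen, so their counts are descriptions. Over all genes tested 5.35% were called higher and 5.25% lower. At least 2-fold in both lines, 11.1% were higher and 13.7% lower. Of 20 clustered protocadherin genes of the Pcdhb family, neuronal adhesion proteins, 4 were called higher in treated EpiSCs (Pcdhb20, Pcdhb21, Pcdhb22 and Pcdhb6), 11 were at least 2-fold higher in both lines and 0 lower, with a median of 1.76. Of 16 Sox genes 6 were called higher and 1 lower (median 0.94). Of 9 Frizzled receptor genes 4 were called higher and 1 lower (median 0.04).

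On the lower side, 5 of 16 Klf genes were called lower and 0 higher (median -0.95): Klf15, Klf3, Klf4, Klf8 and Klf9. Of 22 genes with the stem Tex, named for testis expression, 6 were called lower, 12 were at least 2-fold lower in both lines and the median was -1.54. Of 12 Pramel genes 3 were called lower, and of 12 Nlrp genes 4, among them Nlrp14 and Nlrp4f of the oocyte. Of 10 Ceacam genes 4 were called lower (median -2.06) and of 8 Defa genes, the alpha-defensins, 4 (median -2.43). Members of the Pcdhb, Pramel and Defa families are alike in sequence, and whether probes share signal between them was not tested.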
